A study of Homo sapiens with 9 samples.

Results

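The short arm of chromosome 1 was examined gene by gene in LNCaP clones with and without a deletion in *EPCART*, a long noncoding RNA gene. Its genes were taken from the deposited table of protein-coding genes by position alone, as all genes that start below position 120000000 of chromosome 1 (GENCODE, GRCh38) and average 1 normalized count or more across all 9 libraries. This gave 981 genes of the 17530 genes in the table with such a mean, out of 19984 listed. Another 85 short-arm genes fell under the limit on the mean. The members just inside it were TNFRSF9, PRAMEF10 and P3R3URF, with means of 1.01, 1.06 and 1.08, and the genes just outside it MFAP2, ADORA3 and PADI3, with 0.983, 0.893 and 0.883. The arm was chosen by measured values, because its genes were higher in the deletion clones than in WT in these same libraries, so each comparison of a deletion clone with WT below is a description and carries no test. The tests below compare del-4 with del-56, which the choice of the arm did not use.

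LNCaP is an androgen-responsive prostate cancer cell line that came from a lymph node metastasis. RNA-seq of polyadenylated RNA was measured in 3 cultures each of the clones del-4 and del-56, in which CRISPR-Cas9 removed the promoter and the opening exons of *EPCART*, and in 3 cultures of a WT clone made in the same way. All cultures were kept in RPMI medium with serum and antibiotics, and the labels name no other treatment. Each group is 1 clone, so genotype and clone cannot be told apart, and the replicates measure the spread between cultures of a clone. *EPCART* itself is not among the protein-coding genes of the table and was not analysed here.

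A chromosome arm is a stretch of neighboring genes, most of which share no function, so what is common to its genes crosses many pathways. The short arm of chromosome 1 carries the kinase gene MTOR, several ribosomal protein genes, the GSTM cluster of glutathione transferases, the GBP cluster of interferon-induced GTPases and the steroid dehydrogenase gene HSD3B1, and it ends at a gene-poor centromeric region that separates it from the long arm.

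The libraries held 91074556 to 118877134 reads on genes. The luminal prostate markers KLK3, KLK2, TMPRSS2, HOXB13, FOLH1, KRT8 and KRT18 were above 100 normalized counts in every library. The basal markers KRT5 and TP63, the T-cell marker CD3E and the leukocyte marker PTPRC stayed at or below 9.66, while the basal marker KRT14 held 19.4 to 64.3 and the macrophage marker CD68 485 to 565. Of the endothelial markers, PECAM1 stayed at or below 6.03 and VWF was lowest in del-4, with a mean of 304 against 641 for del-56 and 596 for WT. The 4 stromal markers summed to 1588 to 1971 in del-4, 1795 to 1989 in del-56 and 1397 to 1488 in WT, almost all of it from COL1A1 and ACTA2, while COL1A2 and DCN stayed at or below 9.70. Their part in the results was not tested. Normalized counts are read counts divided by 1 size factor per library, so a level is relative to the other genes of that library.

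The median short-arm gene was higher in every deletion library than in any WT library. For each library, the median over the 981 genes of the log2 difference from the WT mean was 0.221, 0.218 and 0.225 for del-4 and 0.225, 0.218 and 0.222 for del-56. In the 3 WT libraries this median lay between -0.0010 and 0.0030. The means were 0.221 ± 0.0035 for del-4 and 0.221 ± 0.0031 for del-56 (SD, n = 3). Over the 799 genes of the long arm, the same measure was -0.075 ± 0.0065 for del-4 and -0.065 ± 0.0042 for del-56, and over the 15711 genes of other chromosomes -0.0085 ± 0.0022 and -0.0071 ± 0.0027. This last measure pools chromosomes, some of which had shifts of their own, as given below. The short arm took 6.35% to 6.40% of all reads on genes in del-4, 6.49% to 6.52% in del-56 and 5.54% to 5.57% in WT. In bulk RNA, fewer cells of a type and less RNA per cell cannot be told apart.

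**Figure D1:**
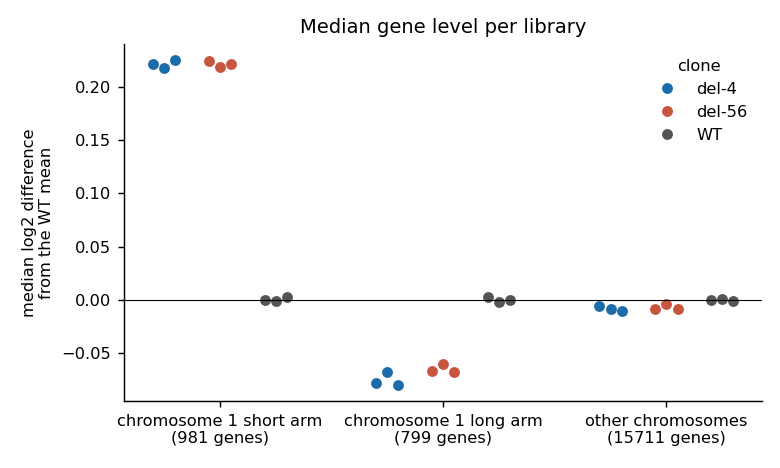
Median log2 difference from the WT mean (y axis) over the genes of the short arm, the long arm and other chromosomes (x axis), with 1 point per library and color for the clone. All 6 deletion libraries lie between 0.218 and 0.225 on the short arm and below 0 on the long arm.

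Between the deletion clones, the median of the arm differed by less than the spread of the libraries. The difference of del-4 from del-56 was -7.8e-06 on the log2 scale (exact two-sided permutation test over 3 and 3 libraries, p = 1.0, with 0.1 the smallest p this design allows). The share of reads on the arm was 6.37% ± 0.025 for del-4 and 6.51% ± 0.016 for del-56 (SD, n = 3), lower in del-4 by 0.133 percentage points with no overlap of the libraries (exact permutation test, p = 0.1).

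Single genes were fitted with limma on log2 of the normalized count plus 1, keeping genes that averaged 1 count or more across the 6 libraries compared. Of the 981 genes, 968 were tested for del-4, 975 for del-56 and 962 for both. Both comparisons share the 3 WT libraries. The fitted log2 fold change was positive for 766 genes for del-4 and for 790 genes for del-56, which is 79.1% and 81.0% against 49.5% and 49.9% of all genes tested. At a Benjamini-Hochberg adjusted p under 0.05, 527 genes were higher and 42 lower in del-4, where 20.5% and 20.2% of all genes tested were, and 504 were higher and 39 lower in del-56, against 19.2% and 20.5%. In either direction, 569 genes (58.8%) were called for del-4, beside 40.7% of all genes, and 543 (55.7%) for del-56, beside 39.7%. All 3 libraries of del-4 lay above all 3 of WT for 563 genes and below for 59, against 24.8% and 24.8% of all genes, and those of del-56 for 544 and 64, against 24.0% and 24.8%. These counts come from the comparison that chose the arm and are given as a description.

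The shift was small and shared by most genes of the arm, with few large changes. Among genes averaging 10 counts or more, the median log2 fold change was 0.22 in del-4 (1.16-fold) and 0.22 in del-56 (1.17-fold), with a middle 50% of genes 0.29 wide in each clone. In del-4, 50.6% of these short-arm genes lay between 0.1 and 0.4, against 21.6% on other chromosomes, and in del-56 51.4% against 21.9%. The other chromosomes are pooled here, and a shift was not particular to the short arm. With the same limit on the mean, chromosome 16 had medians of -0.34 for del-4 and -0.32 for del-56. Chromosome 2 had -0.15 and -0.15, and chromosome 13 had -0.18 and -0.16. Over all tested short-arm genes, a log2 fold change above 1 was found for 47 genes (del-4) and 67 genes (del-56), and one below -1 for 35 and 29. As shares these are 4.86% and 6.87% above 1, against 4.18% and 4.77% of all genes tested, and 3.62% and 2.97% below -1, against 5.66% and 5.29%.

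**Figure D2:**
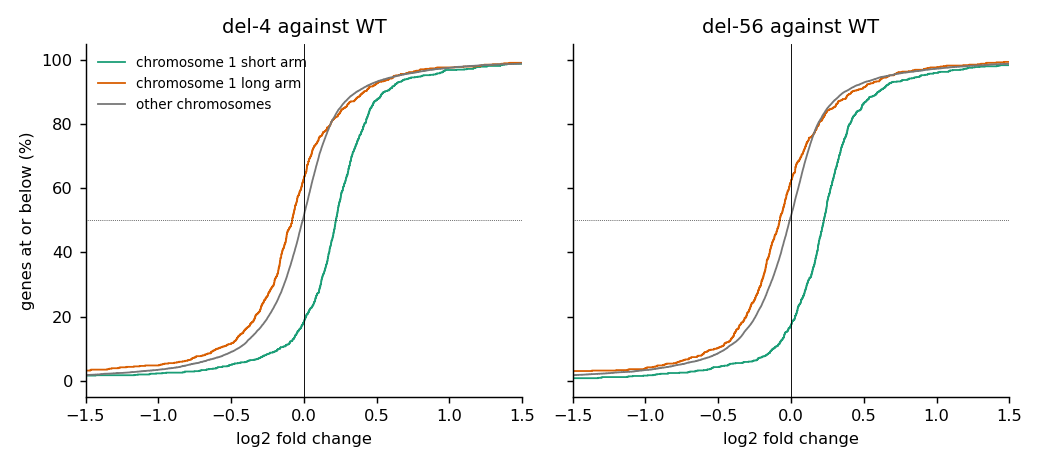
Cumulative share of genes (y axis, %) by log2 fold change against WT (x axis, drawn from -1.5 to 1.5) for genes averaging 10 counts or more, in del-4 (left) and del-56 (right). The short-arm curve is displaced to the right of the curve of other chromosomes over most of its length, with medians of 0.22 and 0.22 against -0.0078 and -0.0094.

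How tightly a gene kept to the shift went with its level. In the lowest of 4 equal bins of mean counts (10.0 to 520.02), 60.4% were higher for del-4 and 67.3% for del-56, and the middle 50% of log2 fold changes spanned 0.76 and 0.73. In the highest bin (8447 to 238767), 94.5% and 94.9% were higher and the spans were 0.18 and 0.17. Low counts carry more counting error, and its part in this spread was not tested. Across 4 bins of exon length the medians stayed between 0.21 and 0.24 in both clones, and across 4 bins of exon GC content between 0.18 and 0.27.

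The shift ran along nearly the whole arm. In running medians of 25 neighboring genes averaging 10 counts or more, 844 of 855 windows of the short arm in del-4 and 819 of 856 in del-56 lay more than 0.1 above the median of other chromosomes. On the long arm, 31 and 14 of 679 windows did. The highest windows were centered at ZBTB40 in del-4 (0.48) and at PINK1, the mitochondrial quality-control kinase gene, in del-56 (0.50), both between 20 and 25 Mb. The lowest were centered at CDC14A in del-4 (0.015) and at TTLL7 in del-56 (-0.048).

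**Figure D3:**
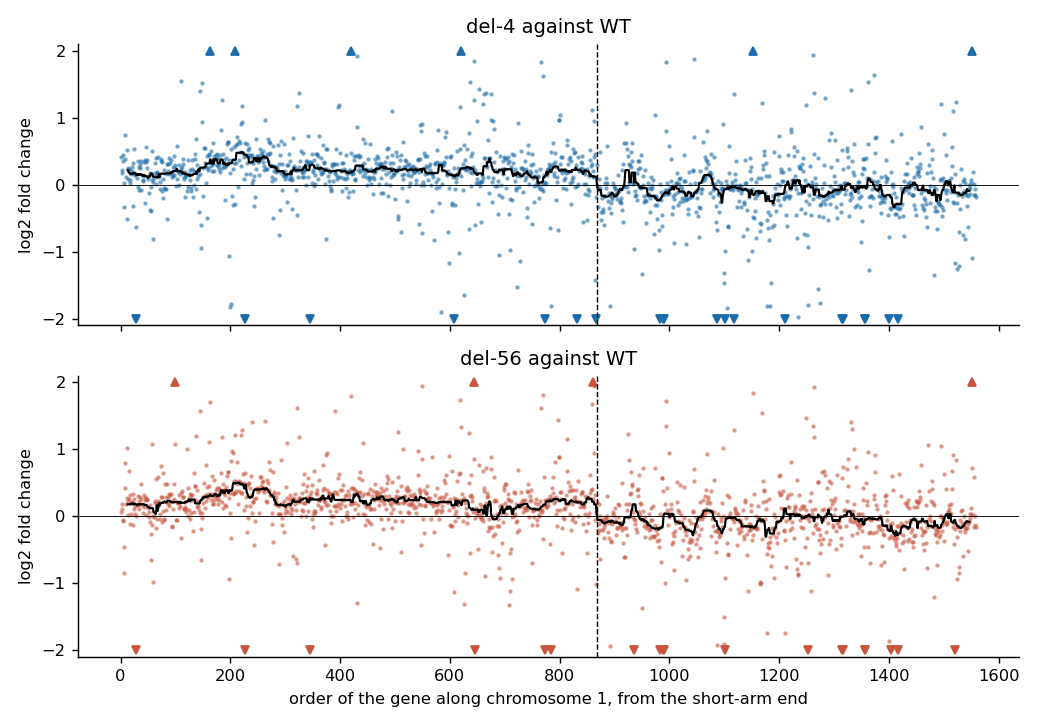
Log2 fold change against WT (y axis) of the 1558 genes of chromosome 1 averaging 10 counts or more in both fits, by gene order from the short-arm end (x axis), for del-4 (top) and del-56 (bottom). Black lines are running medians of 25 genes, the dashed line marks the limit of the short arm after 867 genes, and triangles at the edge are values beyond 2 or -2. The running median stays above 0 for nearly all of the short arm and drops to or below 0 at the dashed line.

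By 5 Mb intervals, the median log2 fold change was largest from 20 to 25 Mb in both clones, followed by 75 to 80 Mb in del-4 (0.39) and by 15 to 20 Mb in del-56. It was 0.32 for del-4 and 0.33 for del-56 from 15 to 20 Mb (49 genes) and 0.41 and 0.38 from 20 to 25 Mb (47 genes). In the latter interval, the medians of the single libraries ran from 0.36 to 0.40 in del-4 and from 0.38 to 0.39 in del-56. The first 15 Mb lay lower, at 0.17, 0.18 and 0.15 for del-4 and 0.17, 0.21 and 0.19 for del-56. From 25 to 55 Mb, the intervals stayed between 0.19 and 0.27 in both clones. Gene-poor intervals further in were lower or less even. Medians of 0.07 and 0.11 were found from 55 to 60 Mb (14 genes), 0.05 and 0.05 from 70 to 75 Mb (14 genes), 0.10 and -0.04 from 80 to 85 Mb (13 genes) and 0.0045 and 0.10 from 100 to 105 Mb (13 genes). Between these, the medians ran from 0.13 to 0.39 in del-4 and from 0.11 to 0.24 in del-56. From 105 to 115 Mb both intervals were at 0.22 for del-4, and they ran from 0.21 to 0.24 for del-56. In the last interval, from 115 to 120 Mb, they were 0.15 and 0.26 (24 genes).

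No outer edge of the shift was found, though windows of 25 genes cannot place an edge among the first genes. SAMD11, at chr1:923923-944575 the first gene of the chromosome in the table to average 10 counts or more, had log2 fold changes of 0.41 ± 0.06 for del-4 and 0.07 ± 0.04 for del-56 (SE). Its neighbor NOC2L, which encodes a nucleolar protein, had 0.22 ± 0.04 and 0.18 ± 0.04. Next came KLHL17, PLEKHN1, PERM1, HES4, ISG15 and AGRN, at 0.18, 0.35, 0.44, -0.33, 0.03 and 0.38 for del-4. For del-56 these were uneven, at 0.10, -0.08, -0.06, -0.85, -0.46 and 0.43. The running median of the first 25 genes was already 0.22 for del-4 and 0.18 for del-56.

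The inner edge lay at the same gene in both clones. Binary segmentation of the fold changes along chromosome 1 placed a break directly after PHGDH (chr1:119648411-119744218), which encodes the enzyme that opens serine synthesis. The 864 genes before it in del-4 had a median of 0.22 and the 694 after it one of -0.08. In del-56 the genes after it had -0.08 as well. PHGDH was counted at 72981, 70516 and 77561 (del-4), 67525, 65378 and 66081 (del-56) and 53178, 54662 and 52415 (WT), so every deletion library was above every WT library. Past the break, NOTCH2, a receptor gene of the Notch pathway and the last gene before the limit, was counted at 5355, 5937 and 5466 (del-4), 6989, 6247 and 6652 (del-56) and 6103, 6438 and 6427 (WT), which put del-4 below WT and left del-56 overlapping it.

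Just past the limit, SEC22B had log2 fold changes of 0.30 for del-4 and 0.22 for del-56, like the genes before the break. The next genes, NOTCH2NLR, NBPF26, FCGR1BP, FAM72B and SRGAP2C, ran from -0.34 to 0.09 in del-4 and from -0.25 to 0.17 in del-56. These belong to duplicated families with near-identical copies, so their counts are uncertain. With only genes averaging 50 counts or more, the break stayed in place in del-4 and moved to between SEC22B and NOTCH2NLR in del-56, where 4 more breaks appeared on the arm, at PRDM2, ARID1A, LEXM and SARS1. A second break was found in del-56 alone, between ALG6 (chr1:63367575-63438553) and ITGB3BP (chr1:63440770-63593721), with a median of 0.25 over the 622 genes before it and 0.17 over the 243 after it up to PHGDH. ALG6, a glucosyltransferase gene of protein glycosylation, had 0.24 ± 0.06 for del-4 and 0.33 ± 0.06 for del-56, and ITGB3BP, a centromere protein gene, -0.08 ± 0.05 and -0.07 ± 0.05. This break was lost with a mean of at least 50 counts and when del-56 replicate 1 or WT replicate 1 was left out and gave way to others, at PARS2 and SARS1, without del-56 replicate 3. Without WT replicate 3 it stayed and another was added at SARS1. The segmentation of the direct difference between the clones gave no break over the 1557 genes of the chromosome.

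Genes of protein synthesis and energy metabolism followed the arm closely. Of 27 genes for translation and mTOR signaling, 23 were called higher and 1 lower in del-4 and 24 higher and none lower in del-56, with median log2 fold changes of 0.31 and 0.28 beside medians of 0.22 and 0.23 for the arm and -0.0029 and -0.0015 for all genes. RPL11, which encodes a protein of the large ribosomal subunit, was counted at 97387, 90208 and 93299 (del-4), 80752, 86283 and 88817 (del-56) and 64979, 60407 and 59009 (WT). All its deletion libraries were above WT, at 0.61 ± 0.04 and 0.47 ± 0.05 (log2 fold change ± SE). RRAGC, a GTPase gene that signals amino acid supply to mTOR, had 0.47 ± 0.05 and 0.42 ± 0.05. MTOR was counted at 8448, 8584 and 8448 (del-4), 10349, 8458 and 8744 (del-56) and 6859, 7559 and 7419.6 (WT), with 0.22 ± 0.04 and 0.33 ± 0.06. Every deletion library of MTOR was above every WT library. The gene called lower was PRKAA2, a catalytic subunit gene of the energy sensor AMPK, called in del-4 alone, with -0.30 ± 0.07 and -0.15 ± 0.08.

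Of 29 genes for mitochondria and energy metabolism, 26 were called higher and 1 lower in del-4 and 22 higher and 1 lower in del-56 (medians 0.28 and 0.22). The glycolytic enzyme gene ENO1 was counted at 204526, 209811 and 218830.1 (del-4), 222420.4, 215396 and 220591 (del-56) and 162766, 158205 and 150017 (WT), all deletion libraries being above WT. PINK1 had 0.56 ± 0.05 and 0.53 ± 0.05, and PARK7, a redox-sensing protein gene, 0.27 ± 0.04 and 0.23 ± 0.04. PGM1, which interconverts glucose phosphates at the entry to glycogen, went the other way, at 806, 788 and 774 (del-4), 993, 1008 and 1002 (del-56) and 2536, 2603 and 2294 (WT). Its deletion libraries were all below WT, by -1.65 ± 0.07 for del-4 and -1.30 ± 0.07 for del-56.

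Lipid and redox genes were less uniform. Of the lipid and steroid genes, 11 of 21 tested were called higher and 2 lower in del-4, and 11 of 23 higher and none lower in del-56 (medians 0.24 and 0.31). The lysosomal thioesterase gene PPT1 and the sterol carrier gene SCP2 were near the arm median, at 0.29 ± 0.04 and 0.32 ± 0.04 for del-4 and 0.29 ± 0.04 and 0.31 ± 0.05 for del-56. The genes called lower in del-4 included the phospholipase gene PLA2G2A, at -1.83 ± 0.09. Of the glutathione and redox genes, 7 of 13 were called higher in del-4 and 9 of 12 in del-56, with 1 lower in each (medians 0.26 and 0.38). GSTM3, a glutathione transferase gene, was counted at 20679, 18246 and 19378 (del-4), 18186, 18185 and 18696 (del-56) and 10274, 9709.7 and 9753 (WT), and no deletion library came near WT. GSTM5 overlaps GSTM3 on the opposite strand, and its counts were within 0.343% of those of GSTM3 in every library, so the counts of these genes cannot be told apart. Both are counted in the list. The peroxiredoxin gene PRDX1 had 0.26 ± 0.05 and 0.30 ± 0.05, and AHCYL1, which encodes a partner of the inositol trisphosphate receptor, 0.31 ± 0.04 and 0.36 ± 0.03. DHRS3, a retinal reductase gene, was the one called lower in both, at -0.95 ± 0.16 and -0.65 ± 0.16.

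Of 24 cell cycle genes, 16 were called higher in each clone, with 1 lower for del-4 and 2 for del-56 (medians 0.19 and 0.18). For this and the next lists, the shares of all genes tested were 20.5% higher and 20.2% lower in del-4. In del-56 they were 19.2% and 20.5%. RCC2, STMN1 and CDC42, which act in mitosis, on microtubules and on the actin skeleton, had 0.44 ± 0.04, 0.28 ± 0.04 and 0.48 ± 0.04 for del-4 and 0.34 ± 0.04, 0.40 ± 0.04 and 0.51 ± 0.04 for del-56. DEPDC1 was called lower in both clones and the cell cycle inhibitor gene CDKN2C in del-56 (-0.26 ± 0.04). Of 26 genes for chromatin and RNA processing, 15 and 16 were called higher and 1 lower in each (medians 0.14 and 0.19). The histone demethylase gene KDM4A had 0.53 ± 0.04 and 0.60 ± 0.04, the remodeler gene CHD5 0.38 ± 0.11 and 0.75 ± 0.11, and the histone-binding gene RBBP4 0.46 ± 0.04 and 0.34 ± 0.04. Those called lower were FUBP1, a MYC regulator gene, in del-4 (-0.12 ± 0.04) and PRMT6, an arginine methyltransferase gene, in del-56 (-0.34 ± 0.04). SFPQ, a splicing factor gene, was higher in del-56 (0.35 ± 0.04) and overlapped WT in del-4 (0.06 ± 0.04). CAPZA1 did the reverse (0.11 ± 0.03 for del-4 and -0.01 ± 0.04 for del-56). It is counted among the 26, although it is an actin capping gene. Of the cancer genes, 13 of 27 were called higher and 3 lower in del-4, and 10 of 28 higher and 2 lower in del-56 (medians 0.21 and 0.19). NRAS was counted at 13238, 13139 and 13206 (del-4), 12167, 12819 and 12754 (del-56) and 10108, 9679.7 and 9706 (WT), above WT in every deletion library. EPHB2, an ephrin receptor gene, was counted at 2656, 2637 and 2833 (del-4), 2998, 2990.0 and 2823 (del-56) and 1218, 1202 and 1172 (WT), which is 1.18 ± 0.06 and 1.29 ± 0.06. SKI and KIF1B had 0.25 ± 0.04 and 0.38 ± 0.03 for del-4 and 0.26 ± 0.05 and 0.28 ± 0.04 for del-56. CSF3R, the receptor gene of a granulocyte growth factor, was listed at 0 in all 3 del-4 libraries and at 3.86 to 9.66 in WT. With NOTCH2 and the immediate early gene JUN (-0.31 ± 0.04), it made up those called lower in del-4, and in del-56 these were ID3 (-0.23 ± 0.05) and CCN1 (-0.40 ± 0.09).

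No gene of the GBP cluster was called higher. Of the guanylate-binding protein genes, 0 of 6 were called higher and 1 lower in del-4, and 0 of 5 higher and 3 lower in del-56 (medians -0.09 and -0.56). Over all genes tested, 20.2% were called lower in del-4 and 20.5% in del-56, and 6 or 5 genes are few to set beside these shares. GBP1 was counted at 42.3, 73.7 and 54.2 (del-4), 36.3, 44.2 and 77.6 (del-56) and 98.6, 122 and 109 (WT), all deletion libraries being below WT. GBP2 had -0.21 ± 0.13 and -0.56 ± 0.14, and GBP3 -0.44 ± 0.34 and -1.33 ± 0.37. Members of this family are close paralogs, so reads can be split between them. GBP3, GBP1, GBP2 and GBP5 stand next to each other and formed 1 of the 2 longest runs of neighbors, 4 genes, with a mean log2 fold change below 0. Of 15 germline genes tested in each clone, 3 were called higher for del-4 and 2 for del-56, beside 20.5% and 19.2% of all genes. HENMT1 was called lower in both clones (medians of the list 0.12 and 0.14). The axoneme gene SPAG17 and the sperm gene SPATA21 were above WT in all deletion libraries (0.30 ± 0.04 and 0.38 ± 0.04 in del-4), while BRDT, a testis bromodomain gene, overlapped WT in both clones. PRAMEF10 held at most 5.66 in any library.

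Counts that need both clones on 1 side of WT were not made over all genes. Of the genes averaging 10 counts or more, 465 had all 6 deletion libraries above the 3 WT libraries. For 67 of these the mean of the clones' log2 fold changes was over 0.5, for 16 over 1 and for 1 over 2. The 8 highest included FBLIM1, COL11A1, NTNG1, FOXD3, TNFRSF1B, TBX15 and HSD3B1. For the pair of these with the most reads, the 250 bases before the RefSeq start are shown (GRCh38.p14, plus strand, FBLIM1 at chr1:15756388-15756637 and NTNG1 at chr1:107139838-107140087), with each CG dinucleotide in capitals, because a promoter's CG content is a feature that the choice of the arm did not use.
FBLIM1: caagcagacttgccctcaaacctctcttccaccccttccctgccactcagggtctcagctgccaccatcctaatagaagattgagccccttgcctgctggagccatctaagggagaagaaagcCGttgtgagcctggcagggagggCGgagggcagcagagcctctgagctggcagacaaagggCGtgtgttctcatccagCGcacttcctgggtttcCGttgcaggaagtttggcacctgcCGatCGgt
NTNG1: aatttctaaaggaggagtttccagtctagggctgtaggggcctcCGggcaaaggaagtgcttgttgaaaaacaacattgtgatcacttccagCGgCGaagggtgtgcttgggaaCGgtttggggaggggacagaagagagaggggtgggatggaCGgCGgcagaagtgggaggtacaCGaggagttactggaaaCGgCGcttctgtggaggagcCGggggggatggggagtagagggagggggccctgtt
The windows hold 7 and 10 CG dinucleotides, a number that 58.4% and 51.9% of all 27305 promoters of the same length reach.

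FBLIM1, which encodes a filamin-binding protein of cell junctions with the extracellular matrix, was counted at 1496, 1423 and 1575 (del-4), 943, 772 and 826 (del-56) and 239.7, 305 and 238 (WT). The lowest deletion library held more than the highest WT library by a wide margin, and the log2 fold changes were 2.53 ± 0.11 for del-4 and 1.70 ± 0.13 for del-56. NTNG1, a netrin family gene that guides axons, was counted at 2981, 3017 and 3181 (del-4), 3499.8, 3431 and 3552 (del-56) and 860.1, 1069 and 1076 (WT), or 1.62 ± 0.08 and 1.81 ± 0.08. TBX15, a T-box transcription factor gene, was counted at 399.5, 418 and 422 (del-4), 549.6, 653 and 621 (del-56) and 191, 232 and 154 (WT). It was highest in del-56, with del-4 between del-56 and WT. HSD3B1, which encodes a steroid dehydrogenase of androgen synthesis, was counted at 57.6, 37.8 and 58.3 (del-4), 95.4, 98.4 and 112 (del-56) and 23.2, 34.7 and 20.7 (WT). Its del-56 libraries were above del-4, and del-4 above WT, but HSD3B2 next to it is a near-identical copy that may share reads. FOXD3, COL11A1 and TNFRSF1B held fewer than 100 normalized counts in every library. FOXD3, a forkhead transcription factor gene, was counted at 81.6, 82.7 and 89.4 (del-4), 53.4, 42.2 and 55.8 (del-56) and 25.1, 7.72 and 35.8 (WT), and a single WT library set much of its change: without WT replicate 2 the log2 fold changes were 1.46 and 0.72 in place of 2.07 and 1.33, and without WT replicate 3 they were 2.50 and 1.76.

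The genes against the shift were fewer than those with it. All 6 deletion libraries lay below WT for 26 genes averaging 10 counts or more, and 24 of these stood alone, with 1 run of 2 neighbors. They were not evenly spread, since 8 of the 26 start past 105 Mb. The 5 Mb intervals from there to the limit hold 33, 42 and 24 genes with such a mean. The mean log2 fold change was under -0.5 for 20 of them, under -1 for 10 and under -2 for 7. These 26 genes have means between 19.2 and 10105, 8 of them over 1000 and 8 under 100. The 8 lowest included HENMT1, DEPDC1, TCEA3, FAM167B, ANKRD65, ELAPOR1 and PHTF1. The promoters of the lowest pair are shown in the same way (GRCh38.p14, minus strand, HENMT1 at chr1:108661475-108661724 and DEPDC1 at chr1:68497083-68497332), with CG in capitals.
HENMT1: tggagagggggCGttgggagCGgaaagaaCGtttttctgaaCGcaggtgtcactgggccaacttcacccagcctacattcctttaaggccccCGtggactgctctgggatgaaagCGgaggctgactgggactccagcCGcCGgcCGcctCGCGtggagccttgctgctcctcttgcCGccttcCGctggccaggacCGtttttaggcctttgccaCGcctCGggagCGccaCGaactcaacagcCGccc
DEPDC1: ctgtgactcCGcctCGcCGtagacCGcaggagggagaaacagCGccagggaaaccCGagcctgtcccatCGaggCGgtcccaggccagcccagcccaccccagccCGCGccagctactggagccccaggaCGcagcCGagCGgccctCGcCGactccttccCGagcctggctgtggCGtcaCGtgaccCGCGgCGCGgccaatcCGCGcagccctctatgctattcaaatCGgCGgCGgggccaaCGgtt
They hold 19 and 28 CG dinucleotides, which 34.3% and 15.5% of all promoters reach. Over the arm, 824 of the 981 genes matched a promoter by symbol, with a median of 19 CG. The 392 matched genes above WT in both clones had a median of 21 and the 21 below it one of 19.

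HENMT1, at chr1:108648290-108661526, encodes the methyltransferase that modifies the ends of piRNAs in germ cells. It was counted at 9.60, 0 and 8.04 (del-4), 1.91, 0 and 0 (del-56) and 551, 524 and 451 (WT). The transcript was thus at the limit of detection in both deletion clones and clearly present in WT. In reads, del-4 held 18 in all and WT 1591, a ratio of 86.5 between WT and del-4 (95% exact Poisson interval on the del-4 reads, 54.7 to 145.9, counting error only). No del-56 library held more than 2 reads, so WT was at least 160.4-fold higher than del-56, with del-56 set at a floor of 3 reads per library. The fitted change in del-4 was -6.79, between -7.40 when del-4 replicate 1 was left out and -5.70 when replicate 2 was. The median of the germline list is the same with HENMT1 placed at its bound.

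DEPDC1, at chr1:68474152-68497221, encodes a protein of cell division. It was counted at 3388, 3087 and 3296 (del-4), 1.91, 6.02 and 0 (del-56) and 4998, 5045 and 4791 (WT). The clones parted here, since del-4 held most of the WT level and del-56 held 8 reads in all 3 libraries against 15482 in WT. WT exceeded del-56 by a factor of 1870.1 (95% exact Poisson interval, 949 to 4332, counting error only). In del-4 the log2 fold change was -0.60 ± 0.05. The fitted change in del-56 was -10.82, and -10.10 without del-56 replicate 3 or -11.50 without replicate 2.

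TCEA3, a tissue-restricted transcription elongation factor gene, was counted at 15.4, 42.8 and 16.1 (del-4), 27.7, 13.1 and 24.3 (del-56) and 858, 759 and 749 (WT), with log2 fold changes of -5.10 ± 0.29 and -5.18 ± 0.25. ELAPOR1, which encodes a membrane protein of the endosomal and lysosomal system, was counted at 133, 144 and 101 (del-4), 49.6, 50.2 and 69.1 (del-56) and 363, 449 and 534 (WT). PHTF1, a homeodomain-like transmembrane protein gene, was counted at 19.2, 31.9 and 12.1 (del-4), 82.1, 92.4 and 92.2 (del-56) and 209.7, 181 and 179 (WT). In ELAPOR1 del-56 was lowest, and in PHTF1 del-4 was lowest, with no overlap between clones. FAM167B was counted at 13.4, 1.99 and 3.01 (del-4), 0, 5.02 and 10.9 (del-56) and 32.9, 54.05 and 51.8 (WT) and ANKRD65 at 1.92, 19.9 and 5.02 (del-4), 7.63, 8.03 and 8.49 (del-56) and 70.5, 42.5 and 81.1 (WT), so both are low in every library. Their fitted changes depend on single libraries, from -3.74 without del-4 replicate 1 to -2.60 without del-4 replicate 2 for FAM167B in del-4, from -4.23 without del-56 replicate 3 to -2.45 without del-56 replicate 1 in del-56, and from -3.92 when del-4 replicate 2 was left out to -2.50 when replicate 1 was left out for ANKRD65 in del-4.

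**Figure D4:**
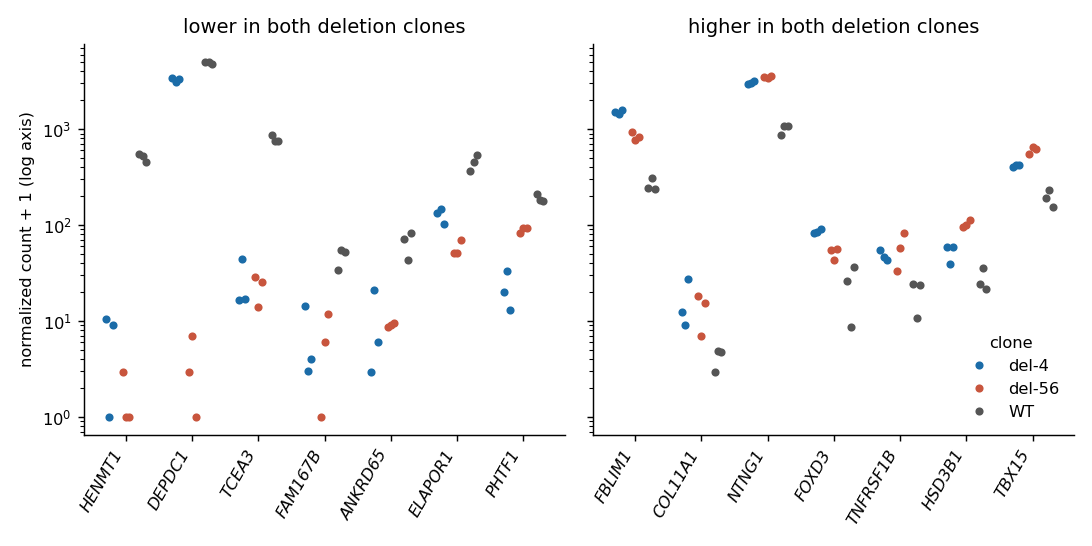
Normalized count plus 1 (y axis, log scale) in each library for 7 of the 8 genes lowest (left) and 7 of the 8 highest (right) against WT, with 3 points per clone. On the left every blue and red point lies under the WT points of its gene, and on the right every one lies over them.

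The other 18 genes below WT in both clones included some of known function, picked after the values were seen. Among them were the Notch target gene HES4 (-0.33 ± 0.05 and -0.85 ± 0.05), the immune receptor gene TNFRSF14 (-0.39 ± 0.25 and -0.66 ± 0.29), the cell cycle inhibitor gene SFN (-0.49 ± 0.19 and -0.38 ± 0.18), the lysophosphatidic acid receptor gene LPAR3 (-0.43 ± 0.04 and -0.58 ± 0.06), PRMT6 (-0.09 ± 0.04 in del-4), the potassium channel gene KCND3 (-0.30 ± 0.10 and -0.20 ± 0.09), and NIPAL3, ZMYND12, LEXM, SNX7, DNAI3, CFAP276 and IGSF3, along with DHRS3, PRKAA2, PGM1 and GBP1 from above. The run of 2 neighbors was CFAP276 and ELAPOR1.

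Between the deletion clones, the genes of the arm differed about as often as genes elsewhere. Of 972 genes tested, 101 had higher and 82 lower levels in del-4 by limma (adjusted p under 0.05), against 10.9% and 9.0% of all genes tested. That is 10.4% and 8.44% of the genes on the arm. The log2 difference was above 1 for 30 genes and below -1 for 49, or 3.09% and 5.04%, beside 3.81% and 4.74% of all genes. All 3 libraries of del-4 lay above those of del-56 for 162 genes and below for 159, against 17.6% and 17.1% of all genes. When libraries were instead scaled to the same total, 77 genes were higher and 137 lower, and after quantile normalization 89 and 101, so the balance of directions depends on the scaling.

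**Figure D5:**
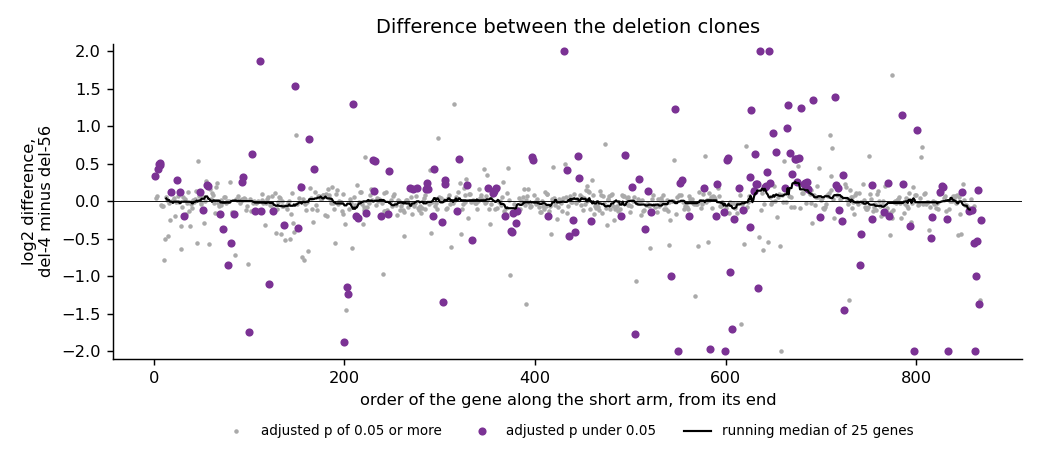
Log2 difference of del-4 from del-56 (y axis) for 868 short-arm genes averaging 10 counts or more, by gene order (x axis), with values beyond 2 or -2 drawn at the edge. Purple points are the 178 genes with an adjusted p under 0.05, and the running median of 25 genes stays near 0 apart from a rise between genes 600 and 700.

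Differences were uneven in position. From 65 to 70 Mb and from 75 to 85 Mb, intervals chosen after their values were seen, 24 of 52 genes were higher in del-4 and 1 was lower, or 48.1% called, beside 19.9% of all genes tested and 16.5% of the 892 genes outside these and the last interval. Those 892 include the interval from 55 to 60 Mb, where 40.0% of 15 genes were called, 2 higher and 4 lower. In the chosen intervals, overlapping genes are counted singly. With any single deletion library left out, 20 to 23 genes of the chosen intervals were higher and 0 to 2 lower. In the interval from 75 to 80 Mb, 9 of 19 genes were higher in del-4: ACADM, MSH4, ST6GALNAC5, AK5, MIGA1, DNAJB4, GIPC2, PTGFR and IFI44. The median of its 18 genes averaging 10 counts or more was 0.39 for del-4 and 0.24 for del-56 against WT. The next genes with values were picked after these were seen. PTGFR, the receptor gene of prostaglandin F, was counted at 22125, 21611 and 21097 (del-4), 17802, 18255 and 18076 (del-56) and 10773, 11157 and 11435 (WT). It differed by 0.26 ± 0.04 (log2 ± SE, limma adjusted p = 3.2e-05), with both clones above WT. MIGA1, a mitochondrial fusion gene, differed by 0.37 ± 0.05 (limma adjusted p = 3.6e-05), and IFI44, an interferon-induced gene, by 0.57 ± 0.13 (limma adjusted p = 0.00345). The genes DNAJB4 and GIPC2 overlap on the same strand and were within 3.81% of each other in every library. They amount to 1 observation, although the counts above include both. From 65 to 70 Mb, WLS, which encodes a carrier for the secretion of Wnt ligands, was counted at 7114, 7071 and 7529 (del-4), 5632, 5388 and 5483 (del-56) and 3226, 2996 and 2873 (WT) and differed by 0.40 ± 0.04 (limma adjusted p = 1.9e-06). LEPR and LEPROT in that interval differed by 0.24 and 0.23 and overlap on the same strand, and both are among the 24.

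At the inner end of the arm the direction was opposite. From 115 to 120 Mb, also chosen after its values were seen, 9 of 28 genes were lower in del-4 and 2 were higher. Over all genes tested, 9.0% were lower and 10.9% higher. Both HSD3B1 and HSD3B2, which may share reads, are among the 9. The lower genes included MAN1A2, WDR3, TBX15, HAO2, HSD3B2, HSD3B1, ZNF697 and NOTCH2, and PHGDH was among the higher ones. HAO2, which encodes a peroxisomal hydroxy acid oxidase, was counted at 56.7, 45.8 and 49.2 (del-4), 256, 211 and 187 (del-56) and 36.7, 54.05 and 49.96 (WT), so del-56 stood apart from del-4 and WT, which overlap. It differed by -2.08 ± 0.22 (limma adjusted p = 2.3e-06). Without del-56 replicate 3 the interval held 6 lower and no higher genes, without del-4 replicate 3 or del-56 replicate 2 it held 7 and none.

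The 5 largest differences in each direction, among genes averaging 10 counts or more with no overlap of the clones, included DEPDC1, NT5C1A, INSL5, RBP7 and PRAMEF12 for higher in del-4 and PHTF1, GSTM2, HAO2 and LDLRAD1 for lower. RBP7, a retinol-binding protein gene, was counted at 407, 405 and 428 (del-4), 83.96, 129.5 and 131 (del-56) and 141, 144 and 139.5 (WT). It was above WT in del-4 and below it in del-56, and differed by 1.87 ± 0.18 (limma adjusted p = 7.2e-07). PHTF1 differed by -2.13 ± 0.36 (limma adjusted p = 3.4e-04), with both clones below WT. The remaining genes in these groups, DEPDC1 and HAO2 aside, had low counts. GSTM2 was counted at 5.76, 1.99 and 12.1 (del-4), 40.1, 16.1 and 29.1 (del-56) and 5.80, 7.72 and 16.97 (WT). NT5C1A was counted at 42.3, 33.9 and 66.3 (del-4), 5.72, 18.1 and 0 (del-56) and 23.2, 15.4 and 3.77 (WT) and INSL5 at 40.3, 51.8 and 38.2 (del-4), 3.82, 14.1 and 14.6 (del-56) and 19.3, 5.79 and 24.5 (WT). In these every del-4 library was above every del-56 library, and WT overlapped del-56. GSTM2 has close paralogs beside it and PRAMEF12 belongs to a family of near-identical copies, so the counts of both are uncertain. PRAMEF12 and LDLRAD1 held at most 78.8 and 38.2. The call was lost when 1 library was left out for GSTM2 (4 of 6 libraries), LDLRAD1 (4), PRAMEF12 (2) and NT5C1A (del-4 replicate 3, limma adjusted p = 0.0555).

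For 13 genes the clones lay on opposite sides of WT without overlap, which fixes the direction of the difference between them. The same count was not made over all genes. CAMK2N1, the gene of a kinase inhibitor, was counted at 11043, 9474 and 11688 (del-4), 28984, 23943 and 23107 (del-56) and 13797, 12083 and 13649 (WT), highest in del-56 and lowest in del-4. The helix-loop-helix inhibitor gene ID3 was counted at 12219.8, 9601 and 10304 (del-4), 6973, 7887 and 6902 (del-56) and 8351, 8759 and 8391 (WT), in the reverse order. The glycine transporter gene SLC6A9 was counted at 4038, 3812 and 3829 (del-4), 2674, 2393 and 2538 (del-56) and 2808, 2813 and 2934 (WT), again with del-4 highest and del-56 lowest. The other 10 were PER3, RBP7, KAZN, FAM229A, PDZK1IP1, DNAJB4, GIPC2, SYDE2, LRRC8C and ARHGAP29, of which KAZN, PDZK1IP1 and ARHGAP29 were highest in del-56 and the rest in del-4. DNAJB4 and GIPC2 overlap, as stated above, and are both counted.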

How the data were processed

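Strand-specific, polyA-enriched RNA-seq of 9 LNCaP libraries (3 cultures each of del-4, del-56 and WT) was used. Per the submitters' notes and the study's methods, the authors checked reads with FastQC 0.11.8 and Trim Galore 0.6.5, aligned 150 bp pairs to GRCh38 with STAR 2.71a, indexed them with SAMtools 1.8 and counted protein-coding genes of GENCODE 38 with bedtools 2.27.1. The strand setting of that count is not given in the sources used here. The deposited values are a signal, gene counts that the authors divided by 1 DESeq2 size factor per library, so differences are relative to the other genes. All values (100.0%) were whole multiples of 1 read, which gave back 91074556 to 118877134 reads per library.

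Positions were matched by Ensembl ID to GENCODE 44 (19905 of 19984 genes, 79 unmatched). Groups were compared in pairs with limma 3.58.1 (R 4.3.3, mean-variance trend) on log2 of the normalized count plus 1, keeping genes averaging 1 count or more, with Benjamini-Hochberg adjustment over all genes tested. Fold changes on this scale understate changes of low genes. Running medians (25 genes) and binary segmentation (values limited to 1 and -1, at least 20 genes, penalty 5) used genes with a mean of at least 10. Tests and segmentation were tested on simulated data. Promoters are from RefSeq. Samples with the same replicate number did not deviate together, so no pairing was used. Alternatives were edgeR 4.0.16 and DESeq2 1.42.0 on the recovered reads, other pseudocounts, filters, scalings and windows, 1 fit of all libraries, a replicate block and leaving out each library. Leaving out genes that overlap another was added after seeing the data.

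The arm and the gene lists were chosen with earlier results of these data known. Named genes are the 8 highest and 8 lowest with all deletion libraries on 1 side of WT, the 3 most abundant and the 2 most changed of each list, the 5 largest differences between the clones in each direction, genes at the edges and MTOR, AHCYL1 and GSTM3. Some genes that this rule names are not reported here. The largest-change choice for a list may fall on a gene with few reads.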

Additional observations from a re-analysis of the deposited data

Results flagged for a closer look

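Values are the log2 difference of del-4 from del-56 with limma's Benjamini-Hochberg adjusted p over all genes tested. The largest differences included 10.22 for DEPDC1 (adjusted p = 1.7e-11), 3.21 for NT5C1A (0.0064), 2.08 for INSL5 (0.00565), 1.87 for RBP7 (7.2e-07) and 1.54 for PRAMEF12 (0.00886). In the other direction they included -2.13 for PHTF1 (0.000339), -2.11 for GSTM2 (0.0196), -2.08 for HAO2 (2.3e-06) and -1.98 for LDLRAD1 (0.0239). With 1 library left out, NT5C1A ran from 2.04 to 4.17 and DEPDC1 from 9.49 to 10.90.

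The genes with the clones on opposite sides of WT were chosen for that, which fixes the direction, and FAM229A was not called as different (limma adjusted p = 0.166). The difference was 0.26 for PER3, 0.56 for ID3, 0.35 for FAM229A, 0.62 for SLC6A9, 0.56 for DNAJB4, 0.57 for GIPC2, 1.35 for SYDE2 and 1.40 for LRRC8C. It was -0.35 for KAZN, -1.24 for CAMK2N1, -0.99 for PDZK1IP1 and -0.44 for ARHGAP29.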

How the results depend on the processing

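The arm median stayed above 0 in both clones under every alternative run. In del-4 it was 0.218, and 0.212 with a pseudocount of 5, 0.149 after rescaling to the same total, 0.226 after quantile normalization and 0.222 without genes that overlap another. In del-56 it was 0.230, and 0.224 with a pseudocount of 5, 0.225 with a mean of at least 10, 0.201 after rescaling, 0.244 after quantile normalization and 0.233 without overlapping genes. Rescaling moved the median of all genes to -0.072 and -0.029. With 1 library left out, the arm medians ran from 0.214 to 0.224 and from 0.222 to 0.230. Counts of called genes stayed within 1.5 times the main ones, at 512 to 542, 488 to 522 and 124 to 196 with 1 library left out. The replicate block gave 564, 505 and 181 calls, with same-number correlations between -0.053 and 0.063.

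The difference of the arm medians between the clones, near 0, changed sign to 0.000104 with a pseudocount of 0.5, 0.00125 without a filter and 0.0039 with a mean of at least 10, and ran from -0.0098 to 0.0017 with 1 library left out. It was -0.040 after rescaling and -0.012 after quantile normalization (exact permutation test, p = 0.1 in each, the smallest possible). It was not run with edgeR, DESeq2 or 1 fit of all libraries. The inner edge in del-56 moved to position 120723912 with a mean of at least 50.

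Of the named genes' values, 902 stayed the same, 15 lost the call, 6 moved and 11 changed sign. For a value against WT, the same means the same sign and a move within the spread of the libraries. Calls were not compared there. For a difference between the clones, it means the same sign and call. With 1 library left out, GSTM4 in del-4 ran from -0.64 to 0.92, HAO2 in del-4 from -0.044 to 0.23, and in del-56 CSF3R from -1.65 to 0.052, LDLRAD1 from -0.42 to 0.54, INSL5 from -1.13 to 0.0083 and PRAMEF12 from -0.47 to 0.28, the last being 0.060 after quantile normalization. The cause was not tested. Few reads limit what can be said of genes such as these.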
